A study of Gallus gallus with 2 samples.

Results

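The domain described here is the 350 kb of chicken chromosome 3 from 41950001 to 42300000, in the coordinates of the deposited lists (galGal5, per the submitters' processing notes). Its bounds were chosen by minima of the insulation score in the same 2 libraries that are described below, so its contrast with the regions outside is a description and carries no test. Members were all pairs of restriction fragments with both midpoints inside these bounds, excluding neighbouring fragments. Of the 6569 fragments found in the lists, 649 (9.88%) lay in the domain. Of the 94492 non-neighbouring pairs listed in the interzone, 4865 (5.15%) were members, and of the 65117 listed in the phalange, 3457 (5.31%).

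The study measured chromatin contacts at the DACT2-SMOC2 locus with low-input targeted chromatin capture (T2C), in which cross-linked chromatin is cut, nearby ends are ligated, and the products of one locus are captured with baits and sequenced. Both tissues came from the hindlimb digit 3 of White Leghorn chick embryos at stage HH32, after 7.5 days of incubation, with no genotype or treatment named. One group was the interzone, the strip of cells where a joint will form, and the other was the neighbouring phalange. Each was 1 library from a pool of 100 dissected specimens, so no value below has a replicate check, and the tissue labels could not be set against marker genes because no expression was measured.

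Chromosomes of vertebrates fold into domains within which sequences meet more often than across the borders. Such borders are often held by the protein CTCF and the ring complex cohesin, which extrudes loops, and a domain can bring distant enhancers to the promoter of a gene. SMOC2 encodes a secreted matrix protein that binds calcium, and DACT2 encodes a protein that binds Dishevelled and modulates Wnt and TGF-beta signalling. Gene positions in the build of the lists were not used here, and no gene is assigned to the 350 kb.

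Inside the domain the data showed slightly more contacts than distance alone gives, with the highest ratio among pairs 100 kb to 150 kb apart. With the number of pairs listed for each fragment also taken into account, contacts in the domain as a whole were below the number expected. That number of pairs includes those inside the domain itself. The stretch from 41950001 to 42000000 met the stretch from 42100001 to 42150000 more, relative to distance, than any other such stretches of the domain met, in both libraries. The last 50 kb of the domain held fewer contacts than distance alone gives. The right border was crossed by fewer pairs than distance alone gives, and the left border was not. At a scale of 50 kb the libraries resembled each other. At 10 kb, among stretches 20 kb or more apart, the resemblance was weak.

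The restriction enzyme ApoI recognises 6 bases, and 646 of the 648 gaps between consecutive fragments of the domain were exactly 6 bases long. Fragments covered 98.5% of its bases. Their length ran from 2 bp to 5239 bp with a median of 353 bp, against 325 bp over the whole locus, and 126 of them were under 100 bp. The list of fragments was thus nearly gapless, and its pieces differed widely in size.

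Of the 209628 possible pairs in the domain, 2.32% were listed for the interzone and 1.65% for the phalange. Each listed pair has 1 value, named signal in the deposited files, which has no stated unit. The median signal of a member was 0.000305 for the interzone and 0.000336 for the phalange. Among members 20 kb or more apart it was 0.000251 (2261 pairs) and 0.000241 (1345 pairs), with highest values of 0.00402 and 0.00189. The medians of distant pairs were nearly equal in the libraries, and the number of listed pairs was used as the main measure.

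Long fragments had more distant contacts than short ones. Across the 649 fragments, length and the number of partners 20 kb or more away inside the domain had a Spearman rho of 0.801 for the interzone and 0.778 for the phalange. These are descriptions across fragments that share a library and, through their pairs, each other. Fragments under 100 bp had a median of 0 such partners in each library. The 100 fragments of 1000 bp or more had a median of 13 for the interzone and 9 for the phalange. They made up 46.5% of the fragment bases of the domain and 32.6% of the fragment ends of distant interzone pairs, or 35.3% of those of the phalange. Fragments without any partner inside the domain numbered 23 in the interzone, with a median length of 23 bp, and 16 in the phalange, with a median length of 18.5 bp.

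The number of listed pairs was set against the number expected if each pair had been listed as often as pairs at the same distance, in classes of 5 kb, over the whole locus. This ratio is called observed over expected. In the interzone 4865 pairs were listed against 4504 expected, a ratio of 1.08 with an exact Poisson 95% interval of 1.05 to 1.11. In the phalange 3457 were listed against 3145 expected, a ratio of 1.10 (1.06 to 1.14). These intervals, and all others given for listed pairs, reflect only counting error and take each pair as independent of the rest. The excess over distance was therefore about as large in each library and small.

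On average, fragments of the domain were listed with more partners, anywhere in the locus, than fragments elsewhere. The mean number of partners of a fragment in the domain was 1.12 times the locus mean in each library. With these fragment totals also entered in the expected number, observed over expected was 0.872 for the interzone and 0.877 for the phalange. The direction of the excess thus depended on whether fragment totals were taken into account. These totals include partners inside the domain, so the members also raise their own expected number. Summed signal in place of listed pairs gave 1.03 in each library.

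The neighbouring domains were measured in the same way. The next domain to the left, from 41630001 to 41950000, had 0.828 (0.805 to 0.851) for the interzone and 0.806 (0.780 to 0.834) for the phalange. The next to the right, from 42300001 to 42940000, had 1.14 (1.12 to 1.16) and 1.15 (1.12 to 1.17). Further left, the domain from 41230001 to 41630000 had 0.797 and 0.754, the lowest of the 5 measured, and the domain from 40840001 to 41230000 had 1.34 and 1.41, the highest. Over all distances, the domain from 41950001 to 42300000 thus lay between its direct neighbours by distance alone. At 20 kb or more it stood at 1.12 and 1.19, against 1.13 and 1.14 on the right and 0.889 and 0.850 on the left. The right neighbour spans 640 kb, so its pairs reach longer distances than those of the 350 kb described here. In the phalange the domain was then above both, but its interval there, 1.13 to 1.26, held the 1.14 of the right. With fragment totals its 0.872 and 0.877 were close to the 0.887 and 0.884 of its left neighbour and below the 0.975 and 0.957 of its right neighbour. The domain from 41230001 then had 0.849 and 0.874, and that from 40840001 had 1.11 and 1.05. The mean number of partners of a fragment was also above the locus mean in the right neighbour, at 1.08 and 1.09 times it. In the domain from 40840001 it was 1.11 and 1.17 times the locus mean. The left neighbour had 0.965 and 0.953, and the domain from 41230001 had 0.974 and 0.928.

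The excess was not even over distance. Pairs under 5 kb apart numbered 1609 for the interzone and 1614 for the phalange, with observed over expected of 1.04 (0.986 to 1.09) and 1.05 (0.999 to 1.10). Pairs 5 kb to 20 kb apart, 995 and 498 in number, had 1.06 (0.994 to 1.13) and 1.04 (0.952 to 1.14). These short classes were at or just above the number that distance gives. The highest ratios were found 100 kb to 150 kb apart, with 410 interzone pairs at 1.33 (1.20 to 1.46) and 266 phalange pairs at 1.47 (1.30 to 1.66). Pairs 50 kb to 100 kb apart had 1.18 (1.08 to 1.27) and 1.20 (1.08 to 1.33). Beyond 200 kb the ratio was 1.05 (0.934 to 1.18) from 291 interzone pairs and 0.977 (0.837 to 1.13) from 172 phalange pairs. Both libraries thus had their highest ratio in the same distance band. With fragment totals, 100 kb to 150 kb was again the highest band in each library, at 1.04 and 1.13, and under 5 kb the values were 0.835 and 0.836.

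**Figure D1:**
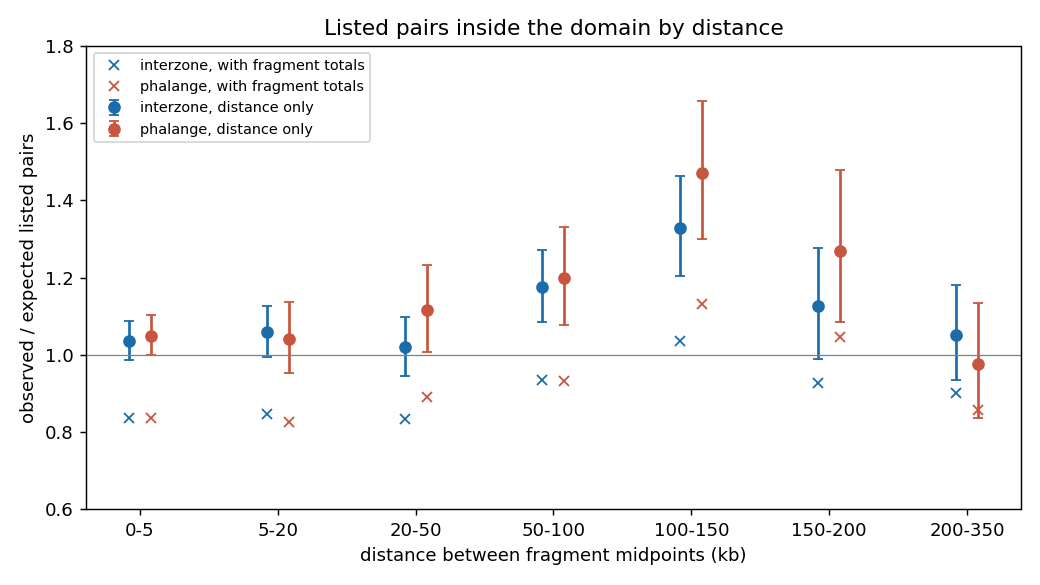
Observed over expected listed pairs inside the domain (vertical axis, no unit) by the distance between fragment midpoints (horizontal axis, kb), for the interzone and phalange libraries. Points use distance only and carry exact Poisson 95% intervals; crosses also use fragment totals. The band from 100 kb to 150 kb is the highest in both libraries, 1.33 and 1.47 by distance only.

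To see where in the domain these contacts lay, it was divided into 7 windows of 50 kb, numbered from its start, which gives 28 window pairs. Observed over expected had an interval wholly above 1 in 10 window pairs of the interzone and 13 of the phalange, and the 10 were among the 13. These are 35.7% and 46.4% of the 28, against 33.0% and 27.3% of the 461 window pairs of the locus up to the same distance. It lay wholly below 1 in 3 interzone and 2 phalange window pairs, of which 2 were the same. That is 10.7% and 7.14%, against 23.2% and 21.5% over the locus. The interzone share above 1 was thus near that of the locus, and the median window of the locus against itself was also above 1, at 1.12 in each library. Close window pairs form a larger part of the 28 than of the 461, so the shares are not matched for distance. Most values over 1 belonged to the first 5 windows, from 41950001 to 42200000. Windows 6 and 7, from 42200001 to 42300000, had shorter fragments, with median lengths of 269 bp and 250 bp against 312.5 bp to 422 bp in the first 5. Their fragments also had fewer partners, at 0.965 and 0.946 of the locus mean for the interzone and 0.957 and 0.846 for the phalange.

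**Figure D2:**
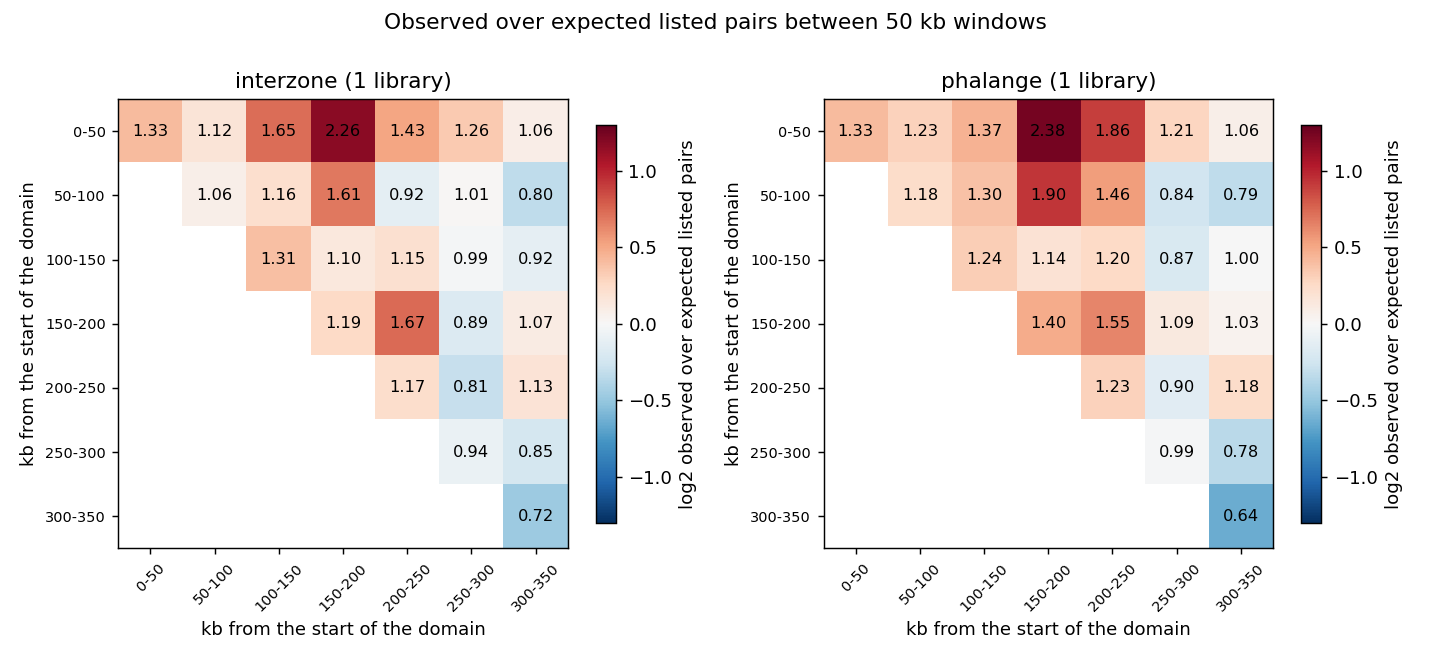
Observed over expected listed pairs between 50 kb windows of the domain, with both axes in kb from its start and 1 panel per library; the number in a cell is the ratio and the colour is its log2. The cell of windows 1 and 4 is the highest in both panels (2.26 and 2.38), and that of the last window with itself is the lowest (0.72 and 0.64).

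Relative to distance, window 1 met window 4 more often than any other window pair of the domain did. Between 41950001 to 42000000 and 42100001 to 42150000, 132 pairs were listed for the interzone and 83 for the phalange. Observed over expected was 2.26 (1.89 to 2.68) for the interzone and 2.38 (1.89 to 2.95) for the phalange. Among the 66 pairs of 50 kb windows at that distance over the locus, this ranked 1 for the interzone and 2 for the phalange, where the medians were 1.05 and 0.998. With fragment totals the ratios were 1.36 and 1.33 and each ranked 9 of 66. In the interzone it was then still the highest of the 28, while in the phalange window 5 with window 7 was higher, at 1.37. The fragments of window 1 had on average more listed partners over the locus than those of any other window of the domain. They stood at 1.40 times the locus mean for the interzone and 1.44 for the phalange, and those of window 4 at 1.22 and 1.27.

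These contacts were spread over many fragments. In the interzone they involved 57 of the 90 fragments of window 1 and 50 of the 81 of window 4, and in the phalange 40 and 41. The most often listed fragment of each window took part in 7 and 8 of the 132 interzone pairs and in 6 and 7 of the 83 phalange pairs. Without those fragments the ratios were 2.07 and 2.05. The signal of the pairs ran from 0.000124 to 0.000919 with a median of 0.000232 in the interzone, and from 0.000111 to 0.00122 with a median of 0.000241 in the phalange. No single strong pair carried the contact, and 2 fragment pairs were listed in both libraries. Over the locus, 1.70% of interzone and 2.90% of phalange pairs 100 kb to 150 kb apart were listed in both. From 150 kb to 200 kb the shares were 1.80% and 2.96%, so a small overlap was usual at these distances.

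The other window pairs with the highest values across both libraries had window 4 in common. Window 2, 42000001 to 42050000, met it in 124 interzone pairs, at 1.61 (1.34 to 1.92), and 85 phalange pairs, at 1.90 (1.52 to 2.35). Window 5, 42150001 to 42200000, met it in 161 interzone pairs, at 1.67 (1.42 to 1.94), and 81 phalange pairs, at 1.55 (1.23 to 1.93). With fragment totals windows 2 and 4 stood at 1.26 and 1.30. Windows 4 and 5 stood at 1.13 and 1.03, and by summed signal at 1.40 and 1.05. Single libraries had high values without window 4: window 1 with window 3 stood at 1.65 (1.38 to 1.95) in the interzone, and window 1 with window 5 at 1.86 (1.36 to 2.48) in the phalange.

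By listed pairs and distance alone, the lowest values lay at the right end. The last window, 42250001 to 42300000, held 490 interzone pairs within itself, at 0.722 (0.659 to 0.789), and 348 phalange pairs, at 0.638 (0.572 to 0.708). Of 69 windows of the locus laid in the same way, it ranked 63 for the interzone and 66 for the phalange, counted from the highest. With fragment totals it stood at 0.803 and 0.872. Windows 6 and 7 met in 232 interzone pairs, at 0.851 (0.745 to 0.967), and 118 phalange pairs, at 0.785 (0.650 to 0.940), and with fragment totals at 0.927 and 0.992. Windows 2 and 7, with 57 and 36 pairs, had 0.798 (0.604 to 1.03) and 0.793 (0.555 to 1.10), intervals that hold 1. The order at the low end depended on fragment totals and on the measure. By summed signal the lowest of the 28 was window 2 with window 3, at 0.557 for the interzone and 0.359 for the phalange. By listed pairs that window pair stood at 1.16 (1.01 to 1.33) and 1.30 (1.09 to 1.55). The last window with itself stood at 0.902 and 0.881 by summed signal. With fragment totals the lowest of the 28 was window 1 with itself, at 0.675 and 0.641, where 447 interzone and 353 phalange pairs stood at 1.33 in each library by distance alone.

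The same layout was then looked at in bins of 10 kb. Of the 561 bin pairs of the domain 20 kb or more apart, 26 had no listed pair in the interzone, 69 had none in the phalange and 2 had none in either. The median was 3 listed pairs for the interzone and 2 for the phalange, so a single bin pair was thinly sampled. In 62 bin pairs both libraries had 5 or more. Observed over expected was above 2 in both libraries in 12 of these 62 (19.4%), against 15.05% of the 751 such bin pairs of the locus. Over all 561 it was above 2 in both in 29 (5.17%), against 5.28% over the locus, so such bin pairs were about as frequent in the domain as elsewhere. Close bin pairs form a larger part of the 561 than of the locus set, and the shares were not matched for distance.

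To be among the 62, a bin pair needed 5 or more listed pairs in each library. The phalange expected number was only 1.28 to 2.23 in the 5 bin pairs named next. Passing that limit thus already required a high phalange ratio, and the ratios below partly reflect it. The highest joint value among the 62 belonged to the bins 41980001 to 41990000 and 42100001 to 42110000, which are 120 kb apart. It had 12 interzone pairs at 3.67 (1.90 to 6.42) and 9 phalange pairs at 4.67 (2.14 to 8.87). With fragment totals the ratios were 2.33 and 2.84. The next bin, 41990001 to 42000000, met the same bin in 6 interzone pairs at 2.79 and 6 phalange pairs at 4.67. The bin 42000001 to 42010000 met it in 9 interzone pairs at 2.49 and 7 phalange pairs at 3.18. These 3 consecutive bins and their common partner lie within the window pairs described above.

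The other bin pairs with high joint values were closer together. The bins 42060001 to 42070000 and 42090001 to 42100000, 30 kb apart, had 11 interzone pairs at 2.99 and 5 phalange pairs at 2.67, and with fragment totals 1.39 and 1.32. The bins 42110001 to 42120000 and 42160001 to 42170000, 50 kb apart, had 10 interzone pairs at 2.43 and 7 phalange pairs at 3.14, and with fragment totals 1.53 and 1.81.

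The bin 42100001 to 42110000 recurred in 3 of these 5 bin pairs and was followed along the domain. It was singled out after its values were seen, so what follows describes it and tests nothing. Its 17 fragments met the domain to the left, 41950001 to 42090000, in 89 interzone pairs, at 1.45 (1.16 to 1.78), and 61 phalange pairs, at 1.84 (1.41 to 2.36). To the right, 42120001 to 42300000, they met it in 46 interzone pairs, at 0.691 (0.506 to 0.921), and 32 phalange pairs, at 0.863 (0.591 to 1.22). The counts to the left include the 3 bin pairs for which this bin was followed. Those hold 12, 6 and 9 of the interzone pairs, and 9, 6 and 7 of the phalange pairs. The left ratios therefore partly reflect that choice, and they were not computed without these bin pairs. With them counted, the contacts of this bin leaned to the left in each library. With fragment totals the values, which also include them, were 1.13 and 1.31 to the left and 0.616 and 0.738 to the right. In the 150 kb before the domain the ratio was 1.01 (0.682 to 1.44) for the interzone and 0.897 (0.523 to 1.44) for the phalange. In the 150 kb after it the ratio was 0.616 (0.345 to 1.02) and 1.04 (0.593 to 1.69).

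**Figure D3:**
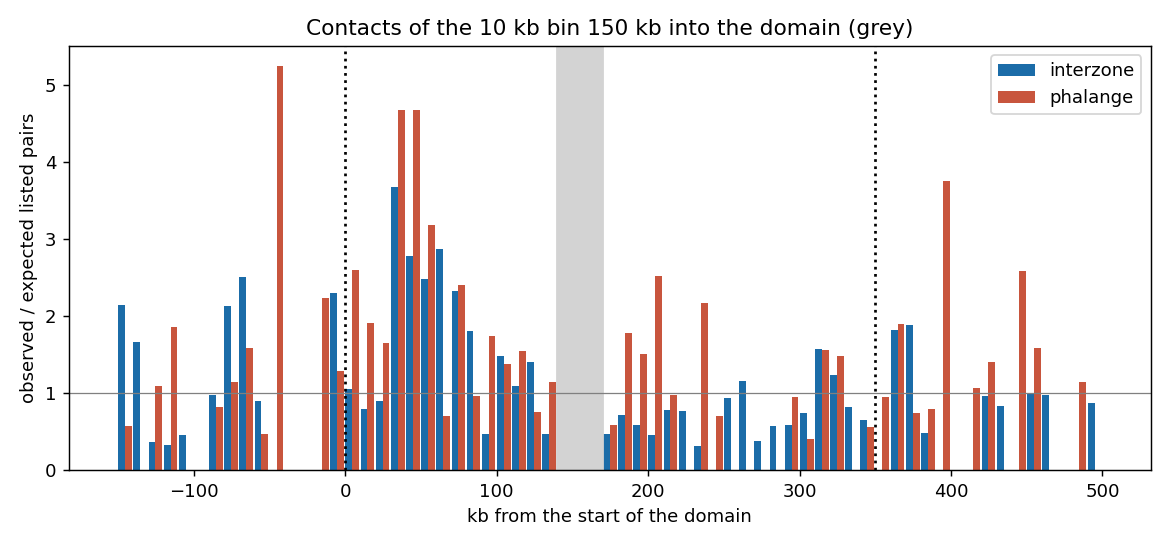
Observed over expected listed pairs (vertical axis, no unit) between the bin 42100001 to 42110000 and each 10 kb bin, by kb from the start of the domain (horizontal axis), for both libraries. The grey band covers that bin and its direct neighbours, and dotted lines mark the bounds of the domain. Bars rest on few pairs each; the tallest cluster shared by both libraries lies 30 kb to 60 kb into the domain, with 3.67 and 4.67 at its first bin.

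Few distant fragment pairs recurred between the libraries. Over all distances 1211 members were listed in both, which is 24.9% of the interzone members (Wilson 95% interval 23.7 to 26.1) and 35.0% of the phalange members (33.5 to 36.6). Over the whole locus up to the same distance the shares were 20.4% and 30.1%. Close pairs form a larger part of the members than of that set, so these shares are not matched for distance. Under 5 kb 1065 pairs were common, 66.2% of the interzone and 66.0% of the phalange members, against 65.7% and 66.4% over the locus. At 20 kb or more 45 were common, 1.99% and 3.35%, against 2.18% and 3.78%. From 20 kb to 50 kb the shares were 2.59% and 4.66%, below the 3.69% and 7.27% of the locus. From 150 kb to 200 kb they were 2.47% and 3.59%, above its 1.80% and 2.96%, from 6 common pairs. From 5 kb to 20 kb 101 pairs were common, 10.2% and 20.3%, above the 9.06% and 17.8% of the locus. The shares from 50 kb to 100 kb and beyond 200 kb lay below those of the locus, and those from 100 kb to 150 kb above. Recurrence was thus close to that of the locus under 5 kb and differed either way in the bands beyond. From 20 kb on, each band rests on few common pairs.

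Of these 45 pairs, the strongest by the lower of the 2 signals joined the fragments 42010787 to 42011519 and 42113694 to 42115435, 103 kb apart, with a signal of 0.000617 for the interzone and 0.000648 for the phalange. It joins windows 2 and 4. The fragments 41952892 to 41954147 and 42071735 to 42072298, 118 kb apart, had 0.000403 and 0.000788. The other 3 of the strongest 5 were shorter, at 23.3 kb to 39.3 kb, and their signals lay between 0.000387 and 0.000454. These values lay above the median of distant members and below the highest distant signals given above.

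Some long fragments had many distant partners. In the interzone the most, 40, belonged to the fragment 42121242 to 42124127 (2886 bp), which had 9 in the phalange and ranked 79 there. The longest fragment of the domain, 42150231 to 42155469 (5239 bp), had 39 and 17 and ranked 2 and 8. The fragment 41977208 to 41978646 (1439 bp) had 37 and 13. In the phalange the most, 23, belonged to the fragment 42000442 to 42003274 (2833 bp), which had 20 in the interzone. The fragment 42005251 to 42006039 (789 bp) had 21 in each library, and 42068758 to 42070210 (1453 bp) had 19 in the phalange and 30 in the interzone. The 3 fragments named for one library were thus not the 3 named for the other. Among the 649 fragments, those named for the interzone ranked 79, 8 and 29 in the phalange. Those named for the phalange ranked 24, 20 and 5 in the interzone. The counts are small, and how often such lists differ over the locus was not measured, so no difference between the libraries is drawn from this.

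Within the domain the insulation score, the log2 of the mean signal of bin pairs within 100 kb on either side of a position over its locus median, is low where few contacts cross. Such minima were kept where their prominence, the depth against the lower shoulder, was at least 0.1. In the interzone the deepest interior minimum lay in the bin 42110001 to 42120000, at -0.43 with a prominence of 0.82, and in the phalange in the next bin, 42120001 to 42130000, at -0.36 with a prominence of 0.55. Shallower interior minima of the interzone, at 42160001 (-0.19) and 42180001 (-0.13), had no counterpart in the phalange. The deepest interior minimum of the interzone lay beside the bin whose contacts leaned to the left, and that of the phalange a bin further on. The score at both positions uses signal between that bin and bins to its right, so these are not independent observations.

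The domain was divided at 42110001, a position taken from the interzone score. Within the first 160 kb, 1897 interzone pairs were listed at 1.24 (1.18 to 1.30) and 1413 phalange pairs at 1.28 (1.22 to 1.35). Within the other 190 kb, 2027 interzone pairs stood at 0.947 (0.906 to 0.989) and 1448 phalange pairs at 0.938 (0.891 to 0.988). Between the parts, 941 interzone pairs stood at 1.13 (1.06 to 1.20) and 596 phalange pairs at 1.19 (1.09 to 1.29). By listed pairs at all distances, the first part was thus above, and the second below, the number that distance gives. Contacts between the parts were not depleted by that measure. At 20 kb or more the second part stood at 0.987 for the interzone and 1.03 for the phalange, and the first at 1.29 and 1.43. By summed signal the second part stood at 1.04 and 1.02, and the first at 1.03 and 1.06, all above 1. The contacts between the parts were by summed signal at 0.949 for the interzone and 0.838 for the phalange. With fragment totals they were at 0.891 and 0.926, within the first part at 0.819 and 0.787, and within the second at 0.918 and 0.963, so that the first part was then the lower.

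The borders of the domain differed from each other. The insulation score in the bin at the left border, 41950001, was -0.65 for the interzone and -0.55 for the phalange. At the right border the minimum was in the bin 42300001 in the interzone, at -0.24, and in the bin 42290001 in the phalange, at -0.47. Pairs that cross a border, within 100 kb on each side, were then counted against the number expected from the possible pairs there. Across the left border 283 interzone pairs were listed, at 1.03 (0.910 to 1.15), and 181 phalange pairs, at 1.14 (0.983 to 1.32). Across the right border 408 interzone pairs were listed, at 0.816 (0.739 to 0.899), and 182 phalange pairs, at 0.646 (0.556 to 0.747). Per possible pair, only the right border was crossed less often than distance gives. The last window, which ends at that border, was also low within itself, at 0.722 and 0.638 by distance alone. With fragment totals it stood at 0.803 and 0.872. Low values there were thus not confined to pairs that cross the border.

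Fragment coverage changed at the left border. The 5 bins before it, from 41900001 to 41950000, held 6 to 10 fragments each against a locus median of 19, and 56 to 331 listed partners in the interzone against a locus median of 545.5. In the phalange they held 57 to 297 against 383. Just inside, the bin at 41950001 held 14 fragments with 690 and 525 partners. With fragment totals the ratio across the left border was 0.784 and 0.718, so that both borders were then below 1, and by summed signal it was 1.20 and 1.44. The part of coverage in the left minimum was not tested. The bins beside the right border were alike in coverage: the bin 42290001 held 26 fragments with 699 and 439 partners, and 42300001 held 29 with 675 and 439. There the ratio was 0.804 and 0.676 with fragment totals, and 0.662 and 0.388 by summed signal.

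**Figure D4:**
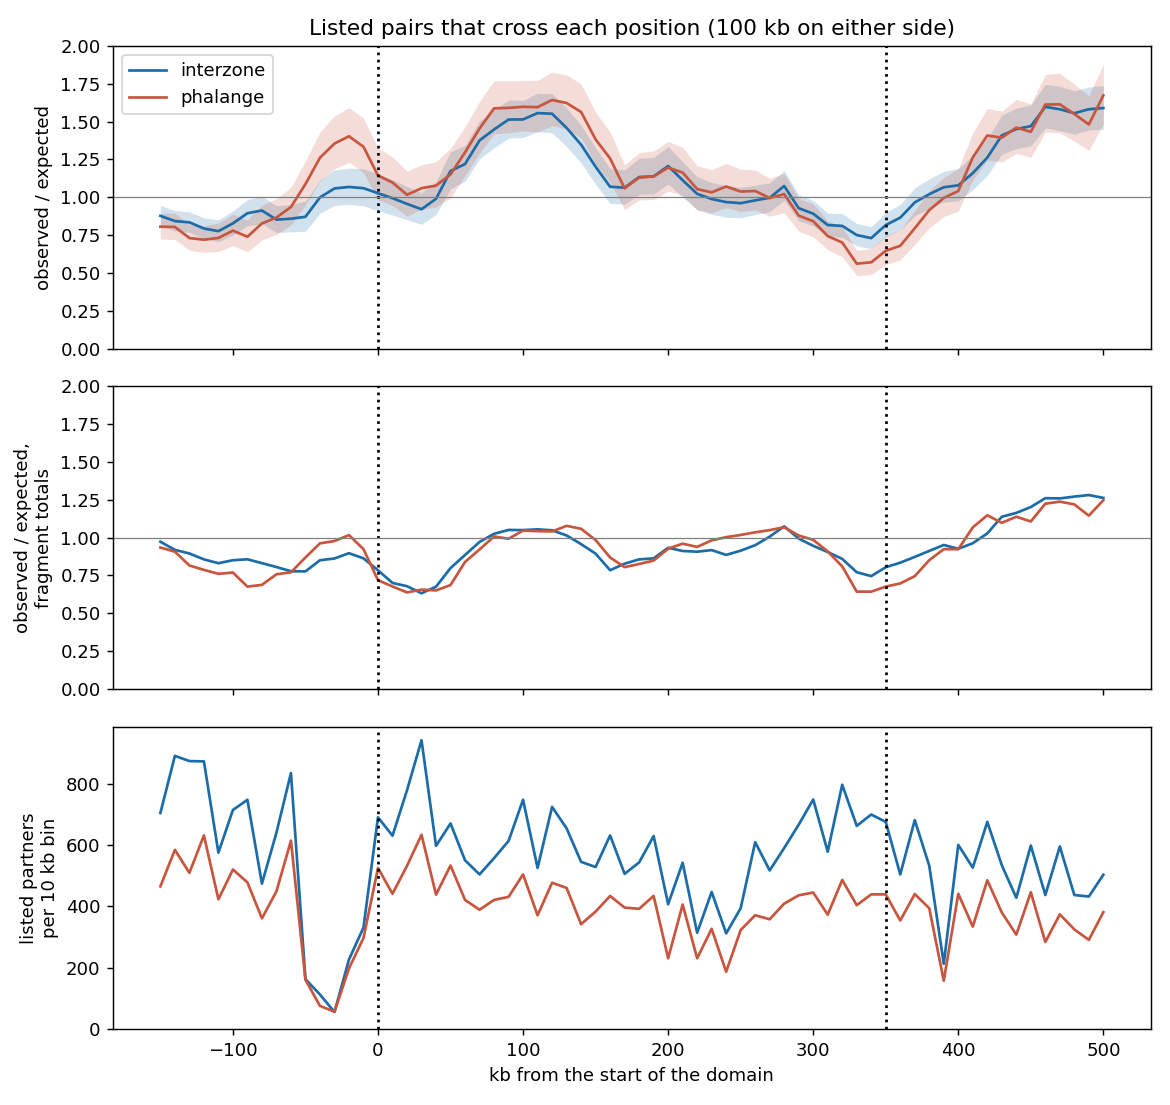
Listed pairs that cross each position within 100 kb on either side, by kb from the start of the domain, as observed over expected by distance (top, bands are exact Poisson 95% intervals) and with fragment totals (middle), and listed partners per 10 kb bin (bottom). Dotted lines mark the bounds. The dip by the right bound appears in the upper and middle panels and is deeper in the phalange (0.646 against 0.816 at 350 kb). Its lowest upper values lie just inside, 0.730 at 340 kb in the interzone and 0.561 at 330 kb in the phalange. At 0 kb the upper panel is near 1 and partners per bin are low just outside. The middle panel is also low there, at 0.784 in the interzone and 0.718 in the phalange.

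Inside the domain the ratio of crossing pairs ran from 0.730 to 1.56 with a median of 1.07 in the interzone, and from 0.561 to 1.64 with a median of 1.09 in the phalange. The peak was in the bin 42060001 for the interzone and in the next bin, 42070001, for the phalange. These peaks stood near the 95th percentile of the locus, 1.56 and 1.63. With fragment totals they fell to 1.05 and 1.04. By distance alone the low points were at the right end, in the bin 42290001 of the interzone and 42280001 of the phalange, against a 5th percentile of the locus of 0.572 and 0.521. With fragment totals they were near the left end, at 0.632 in the bin 41980001 of the interzone and 0.638 in the bin 41970001 of the phalange, close to the 5th percentiles of 0.638 and 0.637.

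The 2 libraries were compared at each of these scales. Over the 28 window pairs, observed over expected correlated between them with r = 0.885 (Pearson) and rho = 0.847 (Spearman). Over the 461 window pairs of the locus up to the same distance the values were 0.844 and 0.838. Close window pairs are a smaller part of these than of the 28, so the sets are not matched for distance. Window pairs overlap in their fragments, and the libraries share fragment lengths and baits. With fragment totals r was 0.754 and rho 0.642 in the domain. Over the 561 bin pairs 20 kb or more apart r was 0.167 and rho 0.157, and with fragment totals 0.016 and -0.003. The resemblance seen at 50 kb was thus weak at 10 kb, where few pairs were listed. The 28 window pairs also hold contacts within a bin and between neighbouring bins, which the 561 leave out. Scale is therefore not the only difference between these sets. Over the 10824 bin pairs of the locus at the same distances r was 0.297 and rho 0.248, and with fragment totals 0.156 and 0.139, all above the values of the domain. Close bin pairs are a smaller part of that set too.

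The ratio of interzone to phalange observed over expected lay between 0.629 and 1.21 over the 28 window pairs, with a median of 0.963. Its 95% interval held 1 in 27 of them. The exception was the pair of windows 2 and 5, with 45 interzone pairs at 0.916 (0.668 to 1.23) and 43 phalange pairs at 1.46 (1.05 to 1.96), a ratio of 0.629 (0.405 to 0.978). With 28 intervals looked at and 1 library per tissue, this is no more than a difference between these libraries. The next lowest were window 1 with window 5, at 0.767 (0.511 to 1.16), and window 4 with window 6, at 0.812 (0.558 to 1.19). The highest were window 1 with window 3, at 1.21 (0.892 to 1.65), window 2 with window 6, at 1.20 (0.777 to 1.89), and window 3 with window 6, at 1.13 (0.750 to 1.74). The median size of the log2 ratio was 0.11 in the domain and 0.17 over the locus, again not matched for distance.

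**Figure D5:**
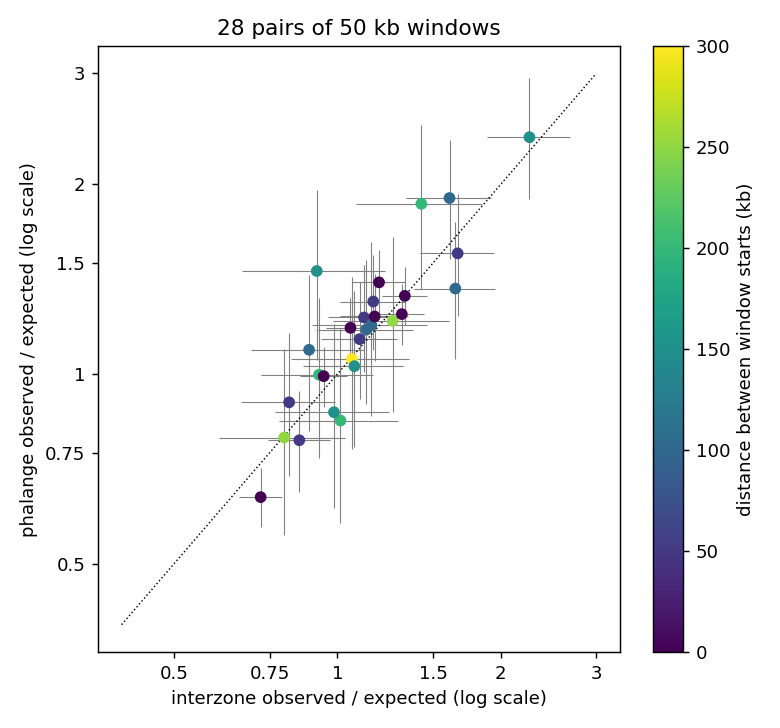
Observed over expected listed pairs in the interzone (horizontal axis) and phalange (vertical axis), both on log scales, for the 28 window pairs of the domain, coloured by distance between window starts (kb). Grey lines are exact Poisson 95% intervals and the dotted line marks equal values; most points lie along it, and the topmost is window 1 with window 4 (2.26 and 2.38).

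The right border was the place where the libraries stood furthest apart among the borders and parts measured. The ratio of interzone to phalange observed over expected was 1.26 (1.06 to 1.51) there and 1.19 with fragment totals, for which no interval was computed. The border was chosen by minima of the insulation score in these same libraries, and this ratio is the most extreme of those compared. With 1 library per tissue, it is no more than a difference between these libraries. Across the left border it was 0.897 (0.742 to 1.09), and 1.09 with fragment totals. Within the first part, within the second and between them it was 0.966, 1.01 and 0.950, with intervals that all hold 1.

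Single 10 kb bin pairs were compared by a two-sided Fisher's exact test, which set the listed pairs of a bin pair against those of all other bin pairs equally far apart. Over the locus 536 bin pairs had 20 or more listed pairs in both libraries together, and 0 (0%) passed a Benjamini-Hochberg adjusted p of 0.05, while 19 had an unadjusted p under 0.05. The test sets 1 library against 1 library, and its p covers counting error only, so it says nothing about the spread between samples of a tissue. Of these bin pairs 50 lay in the domain. Among them 0 passed, 2 had an unadjusted p under 0.05, and the smallest adjusted p by Fisher's exact test was 0.516. Neighbouring bins made up 32 of the 50, so the test bears mainly on short contacts.

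The smallest p belonged to the neighbouring bins at 42270001 and 42280001, with 40 interzone and 9 phalange pairs, a log2 ratio of 1.48, and an exact Fisher p of 0.00192, or 0.516 adjusted. Next were the bins at 42260001 and 42270001, with 30 and 8 pairs, a log2 ratio of 1.23 and an exact Fisher p of 0.0198, or 1 adjusted. The third were those at 42020001 and 42030001, with 18 and 21 pairs, a log2 ratio of -0.83 and an exact Fisher p of 0.0727, or 1 adjusted. None of the 3 passed, and the first pair of bins lies just inside the right border. Over the 50 bin pairs, 21 were higher in the interzone, 29 in the phalange, and the median size of the log2 ratio was 0.36, against 0.34 over the locus.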

How the data were processed

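The authors deposited 1 list of restriction fragment pairs per library with a signal for each pair. The normalization of the deposited signal and any filter were not given in the sources used here. BWA, FastQC and galGal5 are named, without versions, per the submitters' processing notes. Listed pairs were counted here, without adjacent fragments. Depth is unknown, and no reads were inferred. Expected numbers came from all possible pairs of the locus in 5 kb distance classes, and fragment totals are the numbers of partners of each fragment over the locus. Intervals were 95%. Fisher's exact test used 10 kb bins, at least 20 listed pairs, a threshold of 0.05 and a pseudocount of 0.5 in log2 ratios, and was tested on simulated data. Python 3.11.15, numpy 2.4.6, pandas 2.3.3 and scipy 1.17.1 were used.

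Named window pairs were the 3 highest by the lower and the 3 lowest by the higher library, and the 3 highest and 3 lowest ratios, among those with at least 10 expected. Named bin pairs were the 5 highest with 5 or more listed pairs in each library. Named fragment pairs were the 5 with the highest lower signal among those listed in both libraries 20 kb or more apart. Fragments were the 3 with most partners per library, and tested bin pairs the 3 with the smallest p. The domain, its members and these rules were chosen with earlier results of these data known. Alternatives changed the measure, the distance classes, coverage, bounds, bin size and minimum.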

Additional observations from a re-analysis of the deposited data

Results flagged for a closer look

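Adjacent fragments were left out of every value above and held most of the signal of the domain. In the interzone 635 adjacent pairs carried 89.8% of it, with a summed signal of 57.3 and a median of 0.0771. In the phalange 638 adjacent pairs carried 88.4%, with a summed signal of 68.4 and a median of 0.0973. They were singled out because they are a strong signal in data the comparisons did not use, and there is no control library to set them against. Pairs with 1 fragment in between, which were kept, numbered 480 for the interzone and 517 for the phalange and held 64.1% and 74.0% of the remaining signal. The part of uncut or religated DNA in these values was not tested.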

How the results depend on the processing

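Of 191 recomputed values, 147 stayed within the interval of the reported value or, for calls, at 0. Of the 178 that are ratios of observed over expected, 17 came to lie on the other side of 1; the reported interval lay wholly off 1 for 11 of these, given next, and held 1 for the other 6. With fragment totals, observed over expected of the whole domain fell from 1.08 to 0.872 in the interzone and from 1.10 to 0.877 in the phalange, and to 0.912 and 0.955 with pairs under 20 kb also left out. Between the parts it fell to 0.891 and 0.926 with fragment totals and to 0.949 and 0.838 by summed signal. Window 1 with window 3 fell to 0.961 and 0.794 with fragment totals, and window 1 with window 5 to 0.970 in the interzone. The cause was not tested. Without a change of direction, the domain stood at 1.03 in each library by summed signal, 1.04 in each by summed signal without the highest 0.1% of pairs, 1.12 and 1.19 without pairs under 20 kb, and 1.05 in the interzone without fragments under 100 bp. A dividing point 20 kb further left gave 1.23 between the parts in the interzone. The shared share was 1.99% and 3.35% without pairs under 20 kb, and 23.3% in the interzone without fragments under 100 bp. Calls of bin pairs were 0 by Fisher's exact test under each alternative run, with 1 to 8 in the domain at an unadjusted p under 0.05. The 8 were among 158 tested with at least 10 listed pairs, against 62 of 1921 over the locus. With 20 kb bins they were 7 of 90, against 70 of 1268. Fragment totals together with the 20 kb limit, bin pairs within 1 bin, and all alternatives for windows and borders were chosen after seeing the data. No paired analysis was possible because each tissue had 1 library. Depth is unknown, so pairs absent from a list are not shown to lack contact.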

Other observations

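Just outside the left border, summed signal and listed pairs gave unlike values. In the bin at 41930001, 20 kb before the domain, pairs crossing within 100 kb on either side stood at 3.60 by summed signal in the interzone and 7.39 in the phalange. By listed pairs they stood at 1.07 (0.953 to 1.19) and 1.40 (1.23 to 1.59), and with fragment totals at 0.897 and 1.02. That bin held 6 fragments with 227 listed partners in the interzone and 198 in the phalange.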
